A study of Mus musculus with 2 samples.

Results

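The TNF superfamily was examined in primary mouse osteoblasts exposed to medium conditioned by human prostate cancer cells. The family was taken as 41 genes, listed by name with earlier results of these data known: 7 ligands, 17 receptors, 8 adaptors (the TRAFs and death-domain proteins) and 9 intracellular regulators, leaving out RANKL and its receptors. Single-gene probe sets on the array represented 37 of the 41, out of 18193 genes represented in all. The study asked how factors from different prostate cancer lines alter osteoblast transcripts. Osteoblasts at day 10 of differentiation (ascorbic acid at 50 µg/ml and beta-glycerophosphate at 10 mM in alpha-MEM containing 10% fetal calf serum) were serum-starved overnight. They then received medium conditioned by PC-3 cells (1 array) or by MDA-PCa2b cells (1 array) for 6 hours. Both lines come from human bone metastases; PC-3 is known for bone-destroying lesions and MDA-PCa2b for bone-forming ones.

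There was 1 array per medium and no replicate, so no difference between the media could be tested, and every statement below describes these 2 arrays. Osteoblasts kept without cancer-cell medium were not analysed here; "higher" and "lower" are for PC-3 medium set against MDA-PCa2b medium. Signals are MAS5 probe set intensities in arbitrary units. The median of each array, 57.7 with PC-3 medium and 56.7 with MDA-PCa2b medium, served as a floor below which a signal was not read as a level. A gene above it on both arrays is called measured, and the brightest probe set stands for its gene. Where several probe sets of a gene were measured, their log2 ratios had a pooled SD of 0.24 (4921 genes), called the probe set scatter here. It describes agreement between probe sets on the same arrays and says nothing of variation among cultures.

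Ligands of the TNF superfamily are mostly membrane proteins that act as trimers, cut free in some cases, and cluster their receptors. Receptors with a death domain recruit TRADD or FADD, and others bind TRAF proteins directly. Both routes build ubiquitin chains that switch on NF-kB, while FADD can also start caspase-driven death. NF-kB in turn induces several of the pathway's own regulators, among them the brake A20 (Tnfaip3) and the ubiquitin ligase cIAP2 (Birc3). TNF is known to hold back osteoblast differentiation and, through RANKL, to promote bone resorption.

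More members were higher than lower with PC-3 medium. Of the 26 measured members 6 were at least 2-fold higher (23.1%): the receptor genes Tnfrsf9 and Fas, the adaptor gene Traf2, and the regulator genes Tnfaip2, Birc3 and Tnfaip3. Over all 10649 measured genes the share at least 2-fold higher was 1.9%. The list was drawn up with earlier results known, so the members' share describes them and is no independent evidence of a direction. A single member, the receptor gene Tnfrsf19, was at least 2-fold lower, where the share over all measured genes was 1.68%. At 1.5-fold, 12 members were higher (46.2%, against 5.18% of all measured genes) and 1 was lower (against 6.23% of all measured genes). The log2 ratio was above 0 for 22 of the 26 members and for 44.1% of all measured genes. The median log2 ratio of the members was 0.49, beside -0.04 for all measured genes. Of the remaining members with a probe set, 1 passed the floor only in PC-3 medium and 10 were below it on both arrays. Tnfsf12, Tnfsf18, Traf3 and Ripk1 had no single-gene probe set and were not analysed here.

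**Figure D1:**
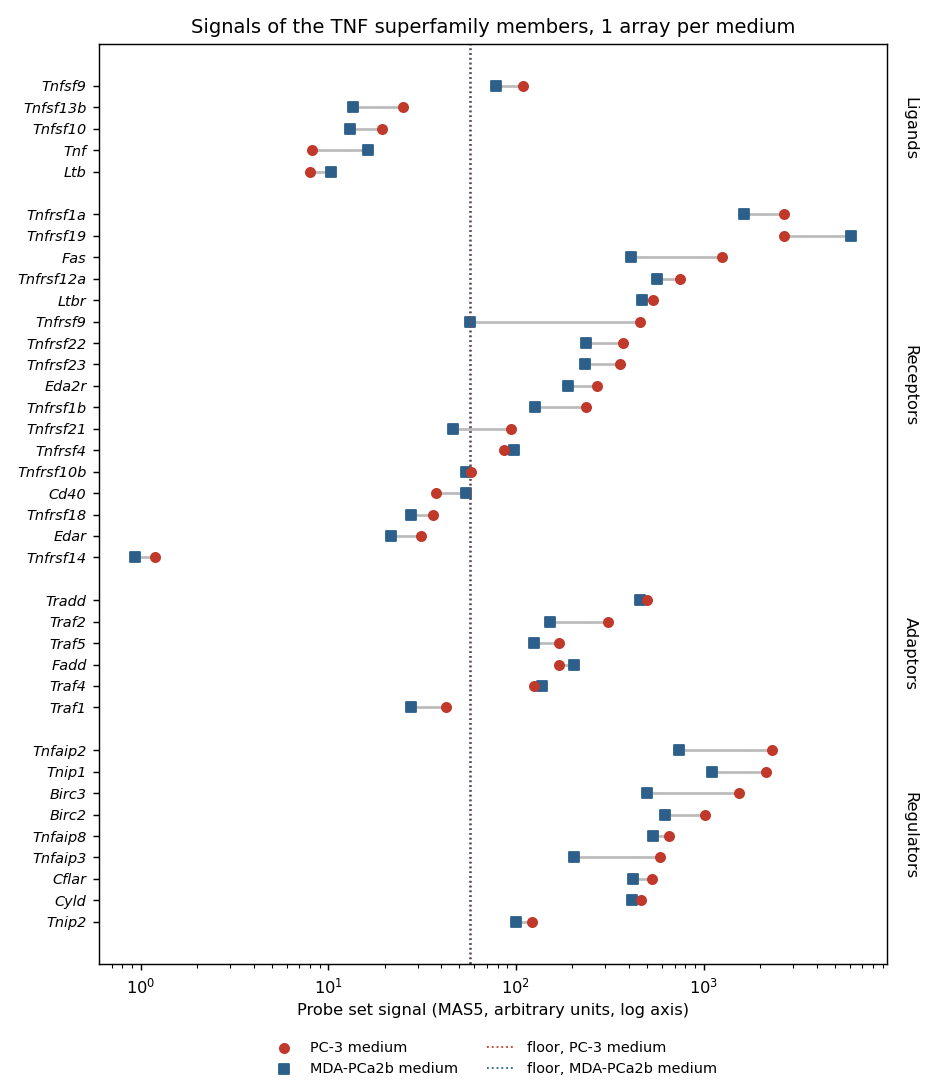
Probe set signal (MAS5, arbitrary units, log axis) of the 37 members with a probe set, by role, with PC-3 medium (red circles) and MDA-PCa2b medium (blue squares), 1 array each; dotted lines mark the floors of 57.7 and 56.7. All 9 regulator genes lie above the floors with the red point to the right of the blue one, while 4 of the 5 ligand genes lie below the floors on both arrays.

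The ligand genes gave little signal in these cultures. Tnfsf9, which encodes the ligand of CD137, was the only one measured, with 109 in PC-3 medium and 78.2 in MDA-PCa2b medium (1.39-fold higher). Tnf itself gave 8.19 in PC-3 medium and 16.3 in MDA-PCa2b medium. Ltb, the lymphotoxin beta gene, gave 8.01 in PC-3 medium and 10.3 in MDA-PCa2b medium. All of these Tnf and Ltb signals are below the floor, so no direction is read from them. Tnfsf10, the TRAIL gene, and Tnfsf13b, the gene of the B-cell factor BAFF, were also below the floor on both arrays, each by all 3 of its probe sets.

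Among receptor genes, Tnfrsf9, which encodes CD137, the receptor for the Tnfsf9 product, had the highest ratio of the family. Its signal was 457 in PC-3 medium and 56.8 in MDA-PCa2b medium, 8.05-fold higher. The MDA-PCa2b signal lies at the floor, so the size of this ratio is uncertain. A second probe set gave 138 in PC-3 medium and 2.89 in MDA-PCa2b medium. Its log2 ratio against the floor is at least 1.28. The third probe set was below the floor on both arrays. With the floor raised to the 75th percentile, the gene could only be called at least 1.53-fold higher. The promoter of Tnfrsf9 at the downstream one of its 2 start sites (GRCm38.p6, chr4:150927749-150928048, plus strand, RefSeq) is shown because it belongs to the member that differed most and holds a match to the NF-kB consensus. That consensus is a motif of 10 bases, given here by name because several of its positions allow more than 1 base. Windows ran from 250 bases before to 50 after a start site, both strands were searched, and capitals mark the bases covered by matches, which may overlap.
Tnfrsf9: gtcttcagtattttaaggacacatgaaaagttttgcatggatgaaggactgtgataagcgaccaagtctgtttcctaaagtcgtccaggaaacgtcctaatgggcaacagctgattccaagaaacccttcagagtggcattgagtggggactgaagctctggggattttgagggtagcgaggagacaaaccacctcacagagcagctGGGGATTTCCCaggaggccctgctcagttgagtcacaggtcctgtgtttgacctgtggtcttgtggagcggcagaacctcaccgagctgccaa
The matches begin 43 bases before that start site. The window at the other start site holds none.

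Fas, the death receptor gene, gave 1256 in PC-3 medium and 408 in MDA-PCa2b medium, 3.08-fold higher by its single probe set. Both genes of the TNF receptors were higher, but by less than 2-fold. Tnfrsf1a, the broadly expressed death-domain receptor of TNF, gave 2694 in PC-3 medium and 1650 in MDA-PCa2b medium (1.63-fold). Tnfrsf1b, the TRAF-binding receptor of TNF, gave 235 in PC-3 medium and 127 in MDA-PCa2b medium (1.86-fold). Its second probe set passed the floor only in PC-3 medium, with a log2 ratio of at least 0.85. The log2 ratios of these 3 genes, from 0.71 to 1.62, exceed the probe set scatter of 0.24.

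Tnfrsf19, which encodes the TRAF-binding receptor TROY, went the other way. It gave 2672 in PC-3 medium and 6117 in MDA-PCa2b medium, 2.29-fold lower. A second probe set gave 666 in PC-3 medium and 1468 in MDA-PCa2b medium. The third gave 566 in PC-3 medium against 1486 in MDA-PCa2b medium. All 3 probe sets were thus lower with PC-3 medium, with log2 ratios of -1.20, -1.14 and -1.39.

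The genes Tnfrsf22 and Tnfrsf23, which in the mouse encode decoy receptors for TRAIL, had similar ratios. Tnfrsf22 gave 374 in PC-3 medium and 237 in MDA-PCa2b medium (1.58-fold higher), with a log2 ratio of 0.18 by a second probe set and 0.66 by the brightest. Tnfrsf23 gave 358 in PC-3 medium and 234 in MDA-PCa2b medium (1.53-fold higher). These genes are close relatives, and cross-hybridisation between their probe sets was not tested. Tnfrsf10b, the TRAIL death receptor gene, was below the floor on both arrays.

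The other measured receptor genes differed by less than 1.5-fold. Eda2r, the gene of an ectodysplasin receptor, gave 270.2 in PC-3 medium and 189 in MDA-PCa2b medium (1.43-fold higher). Tnfrsf12a, the gene of the TWEAK receptor Fn14, gave 744 in PC-3 medium and 566 in MDA-PCa2b medium (1.31-fold higher), and its second probe set had a larger log2 ratio of 0.66. Ltbr, the lymphotoxin beta receptor gene, gave 539 in PC-3 medium and 468 in MDA-PCa2b medium. Its log2 ratio of 0.20 and that of the OX40 gene Tnfrsf4 (-0.18) lie within the probe set scatter. Tnfrsf4 gave 86.3 in PC-3 medium and 97.8 in MDA-PCa2b medium. Tnfrsf21, the gene of death receptor DR6, passed the floor only in PC-3 medium (93.7 in PC-3 medium and 46.4 in MDA-PCa2b medium), at least 1.65-fold higher. A second Tnfrsf21 probe set, with 64.0 in PC-3 medium and 40.0 in MDA-PCa2b medium, had a log2 ratio of at least 0.17. The costimulatory receptor genes Cd40, Tnfrsf14 and Tnfrsf18 and the ectodysplasin receptor gene Edar were below the floor on both arrays.

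The adaptor genes had a median log2 ratio of 0.13 over 5 measured genes, beside 0.61 over 11 receptor genes and 0.71 over 9 regulator genes. Traf2, the TRAF that carries the cIAP proteins to TNF receptors, gave 311 in PC-3 medium and 152 in MDA-PCa2b medium, 2.04-fold higher by its single probe set. It is close to the threshold: with log2(signal + 16) and no floor its log2 ratio was 0.96, short of 2-fold. Traf5, a TRAF of similar binding preference, gave 169 in PC-3 medium and 125 in MDA-PCa2b medium (1.35-fold higher). Tradd, the death-domain adaptor of Tnfrsf1a, gave 501 in PC-3 medium and 456 in MDA-PCa2b medium (log2 ratios of 0.13 and, by another probe set, 0.34). Fadd, which links death receptors to caspase-8, gave 169 in PC-3 medium and 203 in MDA-PCa2b medium (log2 ratio -0.26). Traf4 gave 124 in PC-3 medium and 137 in MDA-PCa2b medium (-0.14). Of these adaptor genes Tradd and Traf4 lay within the probe set scatter by their brightest probe set and Fadd just outside it. Traf1, whose product partners TRAF2, was below the floor on both arrays.

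**Figure D2:**
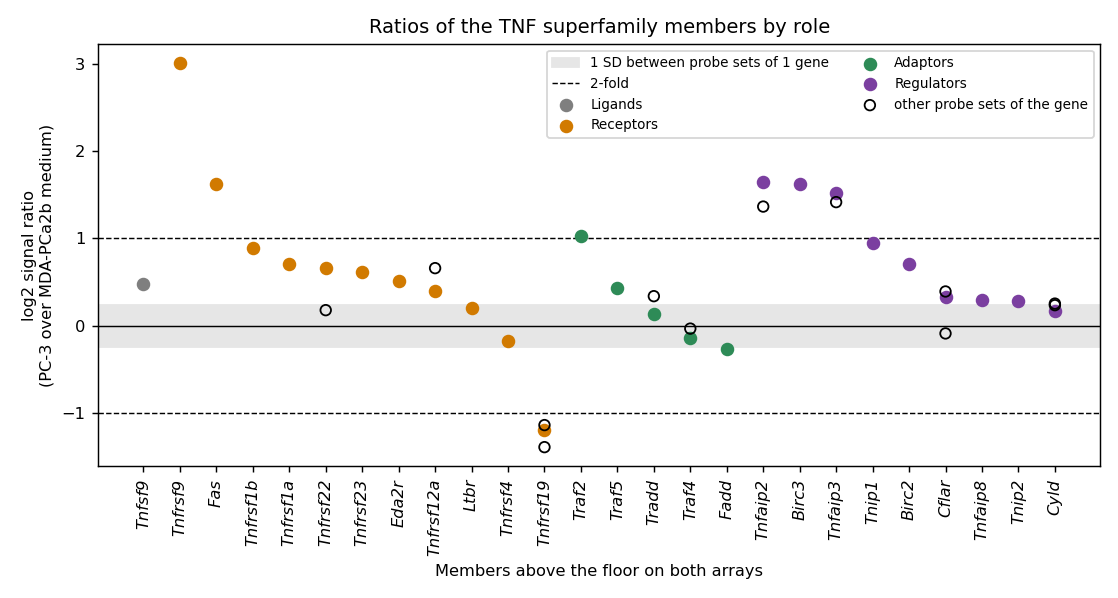
Log2 signal ratio (PC-3 over MDA-PCa2b medium, 1 array each) of the 26 measured members by role; filled points are the brightest probe set of each gene and open circles its other measured probe sets. The grey band is the probe set scatter of 0.24 and dashed lines mark 2-fold; Tnfrsf9 is highest at 3.01 and Tnfrsf19 lowest at -1.20.

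All 9 regulator genes were measured and all 9 had a ratio above 0 by their brightest probe set, of which 3 were at least 2-fold higher. Over all measured genes these shares were 44.1% and 1.9%. The regulators too were listed with earlier results known, so their counts are a description. Tnfaip2, a TNF-induced gene whose product resembles an exocyst subunit, gave 2326 in PC-3 medium and 742 in MDA-PCa2b medium (3.13-fold higher). A second probe set gave 1232 in PC-3 medium and 478 in MDA-PCa2b medium, with a log2 ratio of 1.37 beside 1.65. Birc3, the gene of the ubiquitin ligase cIAP2, gave 1546 in PC-3 medium and 501 in MDA-PCa2b medium (3.09-fold higher). Its relative Birc2, the cIAP1 gene, gave 1021 in PC-3 medium and 624 in MDA-PCa2b medium (1.64-fold higher). Both cIAP genes were thus higher, with log2 ratios of 1.63 for Birc3 and 0.71 for Birc2.

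The genes of the ubiquitin-editing brake differed among themselves. Tnfaip3, which encodes the ubiquitin-editing enzyme A20, gave 586 in PC-3 medium and 204 in MDA-PCa2b medium (2.87-fold higher). Its second probe set gave 174 in PC-3 medium and 65.2 in MDA-PCa2b medium, and the log2 ratios of 1.52 and 1.42 lie within the probe set scatter of each other. Tnip1, the gene of the A20-binding protein ABIN-1, gave 2152 in PC-3 medium and 1112 in MDA-PCa2b medium (1.94-fold higher). Tnip2, the gene of the related ABIN-2, gave 122 in PC-3 medium and 99.9 in MDA-PCa2b medium (1.22-fold higher). Cyld, the gene of a deubiquitinase that also restrains NF-kB, gave 466 in PC-3 medium and 416 in MDA-PCa2b medium. Its 3 measured probe sets had log2 ratios of 0.16, 0.24 and 0.25, at or near the size of the scatter.

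Among these brake genes, the promoters of Tnfaip3, Tnip1 and Cyld are shown because all hold a match to the same NF-kB consensus although their ratios differ. The Tnip2 window held no match and is not shown. Capitals again mark the matched bases. The Tnfaip3 window is chr10:19015361-19015660 (minus strand), the Tnip1 window chr11:54962891-54963190 (minus strand) and the Cyld window chr8:88696778-88697077 (plus strand), all GRCm38.p6 from RefSeq and printed 5′ to 3′ along the gene.
Tnfaip3: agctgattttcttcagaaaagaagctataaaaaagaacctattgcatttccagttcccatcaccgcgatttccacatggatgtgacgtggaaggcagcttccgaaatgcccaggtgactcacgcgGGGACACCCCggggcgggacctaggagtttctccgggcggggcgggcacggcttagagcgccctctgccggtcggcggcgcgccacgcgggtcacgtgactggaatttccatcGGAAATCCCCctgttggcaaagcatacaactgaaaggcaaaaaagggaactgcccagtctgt
Tnip1: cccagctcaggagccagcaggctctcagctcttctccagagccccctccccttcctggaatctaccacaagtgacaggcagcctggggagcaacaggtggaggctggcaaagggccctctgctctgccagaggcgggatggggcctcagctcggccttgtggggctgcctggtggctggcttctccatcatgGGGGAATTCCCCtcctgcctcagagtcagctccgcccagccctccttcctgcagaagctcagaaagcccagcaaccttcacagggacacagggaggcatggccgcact
Cyld: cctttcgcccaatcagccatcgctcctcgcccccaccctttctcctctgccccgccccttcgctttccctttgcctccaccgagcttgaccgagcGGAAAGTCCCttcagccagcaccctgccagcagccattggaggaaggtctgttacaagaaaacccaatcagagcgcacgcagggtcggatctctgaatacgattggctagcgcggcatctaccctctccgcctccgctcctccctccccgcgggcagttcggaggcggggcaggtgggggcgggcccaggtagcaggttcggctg
The matches begin 125 bases before the Tnfaip3 start site (the other of its 2 windows holds none), 58 bases before that of Tnip1 and 155 bases before that of Cyld. Of 34 members with an entry among the RefSeq promoters, 6 held a match in at least 1 window: Tnfrsf9, Tnfaip3, Tnip1, Cyld, Traf3 and Ltb. Of all 27025 genes with a promoter entry, 5.14% held one, and of all 32851 windows 4.51%. Of the 6 members at least 2-fold higher, 2 held a match, and Fas, Birc3, Tnfaip2 and Traf2 did not. Of all 149 genes at least 2-fold higher with a promoter entry, 27 held one (18.1%), beside 6.24% of all measured genes with an entry. With 6 genes, 2 matches do not set these members apart from the other genes at least 2-fold higher. A match is a description of these letters, and binding was not measured.

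Cflar, which encodes the caspase-8 inhibitor c-FLIP, gave 528 in PC-3 medium and 421 in MDA-PCa2b medium (1.25-fold higher). Its other measured probe sets gave log2 ratios of 0.39 and -0.09, so they disagree in sign. Tnfaip8, the gene of a TNF-induced protein linked to cell survival, gave 657 in PC-3 medium and 535 in MDA-PCa2b medium (1.23-fold higher). Over all members, 15 further probe sets were above the floor on 1 or both arrays, and 14 of them had the same sign as the brightest one.

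**Figure D3:**
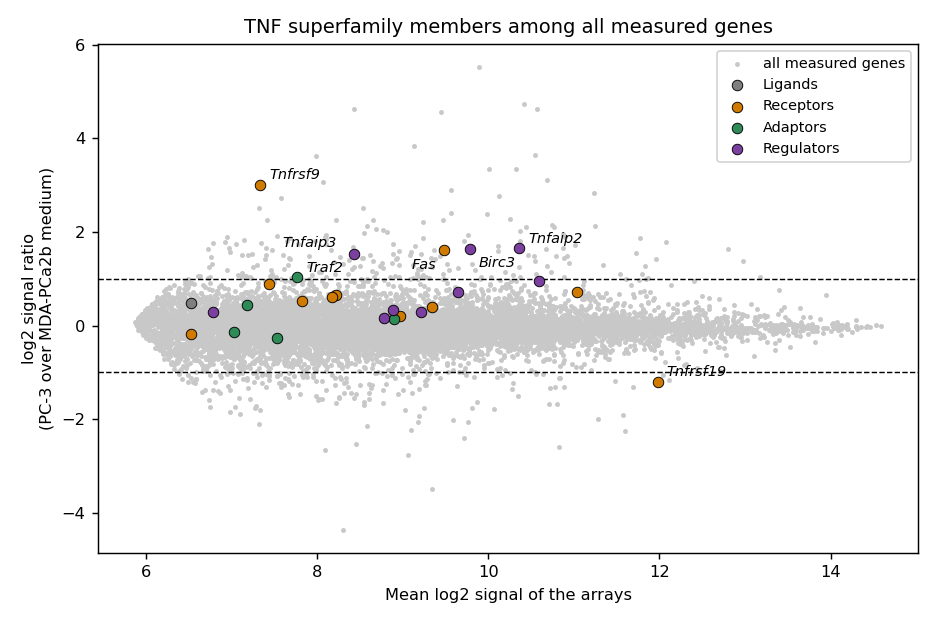
Log2 signal ratio (PC-3 over MDA-PCa2b medium) against mean log2 signal for all 10649 measured genes (grey) and the 26 measured members, coloured by role, 1 array per medium; dashed lines mark 2-fold. The 7 named members lie beyond those lines, 6 above and 1 below.

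Other genes of the pathway were counted in the same way, beside 1.9% of all measured genes at least 2-fold higher and 1.68% lower. Of 15 measured genes of the NF-kB module (subunits, IkB inhibitors and upstream kinases) 6 were at least 2-fold higher, none was 2-fold lower and 9 lay within 2-fold. The largest ratio was that of Nfkbiz, which encodes a nuclear IkB-like cofactor, with 2313 in PC-3 medium and 441 in MDA-PCa2b medium (5.24-fold). Nfkbie, the IkB epsilon gene, gave 878 in PC-3 medium and 185 in MDA-PCa2b medium (4.74-fold). Bcl3, the gene of a partner of NF-kB p50 and p52 dimers, gave 845 in PC-3 medium and 202 in MDA-PCa2b medium (4.19-fold). Relb, an NF-kB subunit gene of the non-canonical branch, gave 524 in PC-3 medium and 142 in MDA-PCa2b medium (3.69-fold). The others were Nfkbia, the IkB alpha gene, and Nfkb2, with log2 ratios of 1.78 and 1.04. Map3k8, the gene of the ABIN-2-bound kinase TPL2, passed the floor only in PC-3 medium (355 in PC-3 medium and 31.7 in MDA-PCa2b medium), at least 6.25-fold higher. By contrast the kinase gene Ikbkb gave 665 on both arrays, and Map3k7 and Map3k14 had log2 ratios of 0.08 and 0.02.

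None of the 13 other ubiquitin-editing genes differed 2-fold, a count that those shares over all measured genes would not set apart. These genes include the subunits of the linear ubiquitin ligase, Rnf31, Rbck1 and Sharpin, whose log2 ratios were 0.09, 0.10 and 0.07. The largest differences were those of the deubiquitinase gene Usp2 (-0.58) and of Spata2, whose product links CYLD to receptor complexes (0.31). The median of this list was 0.08.

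Of 10 measured genes of death execution 1 was at least 2-fold higher, beside 1.9% of all measured genes. A count of 1 is too small to set this list apart. Mlkl, the gene of the pore-forming protein of necroptosis, gave 251 in PC-3 medium and 121 in MDA-PCa2b medium (2.07-fold), and fell short of 2-fold with log2(signal + 16). The caspase gene Casp6 gave 1591 in PC-3 medium and 873 in MDA-PCa2b medium (1.82-fold higher). Bid, which links caspase-8 to mitochondria, gave 477 in PC-3 medium and 267 in MDA-PCa2b medium (1.79-fold higher). Casp8 gave 607 in PC-3 medium and 555 in MDA-PCa2b medium, a log2 ratio of 0.13 that is within the probe set scatter. Casp6 (2 probe sets) and Bid (3 probe sets) are given by their brightest probe set alone. With probe sets averaged, the count of death genes at least 2-fold higher was 2. Casp6, Bid and Casp8 were named after their values were seen.

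A further list held other TNF superfamily ligands and receptors together with further TRAF, adaptor and TNF-induced genes. Of its 24 genes with a probe set 14 were below the floor on both arrays, and none of the 10 measured differed 2-fold. The shares over all measured genes, 1.9% higher and 1.68% lower, would not set this count apart. The superfamily genes proper among the measured were the ligand gene Eda and the receptor genes Relt and Ngfr, with log2 ratios of 0.18, 0.12 and -0.03. These genes were singled out after their values were seen. Their signals in PC-3 and MDA-PCa2b medium were near the floor: Eda 73.1 and 64.5, Relt 73.3 and 67.4, Ngfr 72.0 and 73.3. Ratios so near the floor say little about a lack of change. The largest differences of this list were those of Tnfaip8l1 (-0.37), a relative of Tnfaip8, and of the TNF-induced hyaluronan-binding protein gene Tnfaip6 (0.36). In the RANKL axis, the ligand gene Tnfsf11 had log2 ratios of 0.85 and 1.07 by its probe sets, and the decoy receptor gene Tnfrsf11b -1.56 and -1.03. The RANK gene Tnfrsf11a was below the floor on both arrays.

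**Figure D4:**
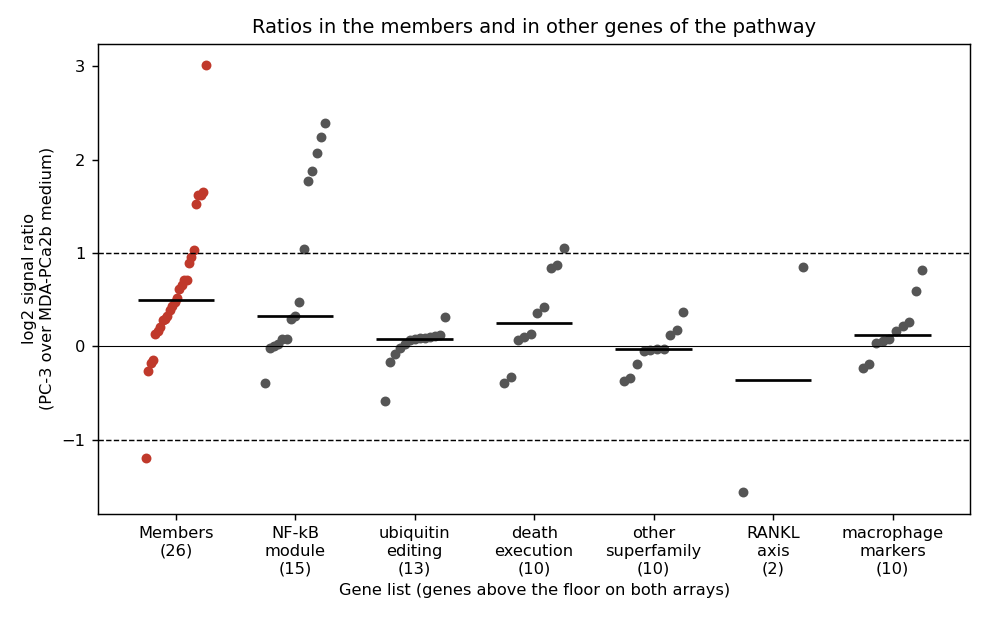
Log2 signal ratio (PC-3 over MDA-PCa2b medium, 1 array each) of measured genes in the family and in other gene lists; each point is a gene, thick lines are medians, dashed lines mark 2-fold and the number of genes is in brackets. The family (median 0.49) and the NF-kB module (median 0.33) include genes above 2-fold; the ubiquitin-editing genes (median 0.08) include none.

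The cultures also held transcripts of other cells. All 10 macrophage markers were measured, with a summed signal of 16460 in PC-3 medium and 15988 in MDA-PCa2b medium and none at 0 or below the floor. Lyz2 alone made up most of these sums, with 9416 in PC-3 medium and 9194 in MDA-PCa2b medium. The log2 ratios of the 10 markers ran from -0.23 (Ptprc) to 0.82 (Fcgr1), with a median of 0.12, and 8 were above 0. None differed 2-fold, which shares of 1.9% higher and 1.68% lower over all measured genes would not set apart. At 1.5-fold 2 were higher, Fcgr1 and Cd68 (20%, against 5.18% of all measured genes), and none was lower. Several members, among them Tnfrsf1b, Tnfrsf9 and Tnfaip2, are also known in macrophages, and the part of these cells in the ratios was not tested. Fewer cells of a type and less RNA per cell cannot be told apart in such bulk samples. Of the osteoblast markers, 4 of 6 had a probe set and all 4 were measured, summing to 40254 in PC-3 medium and 43333 in MDA-PCa2b medium, with log2 ratios from -0.68 (Sp7) to 0.00 (Col1a1). All 5 endothelial markers were below the floor on both arrays. Of 7 lymphocyte markers 6 were below it on both and Cd8a was above it with MDA-PCa2b medium alone (32.3 in PC-3 medium and 72.3 in MDA-PCa2b medium).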

How the data were processed

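RNA of 2 osteoblast cultures was measured on 1 Affymetrix mouse array each; 5 µg of total RNA was labelled with biotin, per the labels. Each sample's source name gave its group; the PC-3 array's title includes the letters MDA as well, so every direction rests on its source name and description, which both name PC-3. The authors deposited probe set signals, a linear intensity; GCOS 1.4 and the MAS5 algorithm are named in the submitters' processing notes. The mean without the lowest and highest 2% of probe sets was 300.002 on each array, so the values had been scaled. Detection calls and background settings are not given in the sources used here.

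Of 45101 probe sets 64 controls were left out. The platform annotation gave 34958 probe sets 1 gene, 932 several (not used) and listed none for 9211; 34754 matched a mouse gene table (GRCm38.p6, for names) and 0 symbols changed. Of these, 72 belonged to members. Signals under the 50th percentile of their array were set to it and log2 was taken; the ratio is PC-3 minus MDA-PCa2b medium. A ratio with 1 array at the floor is a bound. The number of arrays limits the precision: 1 per group allows no SD or p-value. Every member is named; of other lists the largest at least 2-fold differences, at most 4, or the 2 largest where none was, apart from genes given as examples, which were chosen after their values were seen. Members and lists were chosen with earlier results of these data known. Alternatives were other floors, log2(signal + 16), quantile normalisation, centring, averaging probe sets, leaving out probe sets ending in _s_at or _x_at, and other thresholds. The ratio calculation was tested on simulated data, with changes planted only in genes well above the floor and equal noise at every signal. That test says nothing of changes near the floor or of variation among cultures. Promoters came from RefSeq. Python 3.11.15, numpy 2.4.6 and pandas 2.3.3 were used.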

Additional observations from a re-analysis of the deposited data

How the results depend on the processing

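The sign of all 26 members' log2 ratios was the same under every alternative that gave a ratio; of 169 recomputed values 166 moved by less than the probe set scatter of 0.24. The exceptions were Tnfrsf9 (2.70 with log2(signal + 16), 3.01 as reported) and, without probe sets ending in _s_at or _x_at, Tnfaip2 (1.37 and 1.65) and Tnfrsf12a (0.66 and 0.39). Many of the 169 values could not move. A changed floor leaves the ratio of a gene still measured as it was, and centring shifts every ratio equally. Averaging or leaving out probe sets can alter a ratio only in genes with several. The kept signs and the count of 166 therefore say little about stability. Raising the floor to the 75th percentile left 13 members measured, of which 3 were at least 2-fold higher (Fas, Birc3 and Tnfaip2). Tnfrsf9, Tnfaip3 and Traf2 then gave only bounds, of log2 0.61, 0.97 and 0.05. That floor also left 2 genes of the NF-kB module, 0 genes of the death list higher and 0 of the RANKL axis lower. At 1.5-fold 12 members, 1 RANKL axis gene and 3 death genes were higher. At 3-fold 0 members and 0 RANKL axis genes were lower and 0 death genes higher. The death count was 2 with probe sets averaged and 0 with log2(signal + 16), under which Mlkl fell short of 2-fold. Under log2(signal + 16), 3 genes of the further superfamily and TNF-induced list were higher (Tnfrsf13c, Tnfrsf17 and Tnfrsf25) and 1 lower (Tnfsf4). That setting has no floor and took in all 24 genes of the list with a probe set. The genes that then differed 2-fold were below the main floor on both arrays. With the floor at the 25th percentile Tnfrsf21 was also 2-fold higher (log2 ratio 1.01). A changed number of measured genes (fewer with the higher floor, 32 members with the lower) or another threshold makes these changes by construction. With log2(signal + 16) these list counts changed through genes below the floor and through Mlkl. For averaging the cause was not tested. Over all 10649 measured genes, 202 were higher and 179 lower at 2-fold (1.90% and 1.68%). With the 25th percentile floor they were 427 and 382 of 13623 (3.13% and 2.80%). With that at the 75th they were 90 and 56 of 6453 (1.39% and 0.87%). With log2(signal + 16) they were 527 and 436 of 18193 (2.90% and 2.40%). At 1.5-fold they were 552 and 663 (5.18% and 6.23%), and at 3-fold 79 and 36 (0.74% and 0.34%). No paired analysis was possible because each medium had 1 array.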

Other observations

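The NF-kB consensus searched in the members' promoters was also counted over all measured genes. Of 149 genes at least 2-fold higher with PC-3 medium that had a promoter in the table, 27 held a match (18.1%), and of 135 genes at least 2-fold lower 7 did (5.19%). Of all 8676 measured genes with a promoter 541 did (6.24%). In the NF-kB module Nfkb2, Nfkbia, Nfkbie and Bcl3, all at least 2-fold higher, held a match, as did Map3k7 with a log2 ratio of 0.08. Rel and Nfkbid, which were not measured on both arrays, held one too. The entries of Rela, Nfkbib, Ikbkg, Map3k14, Tab2 and Tab3 held none, and these genes had log2 ratios from -0.02 to 0.48. Chuk, which had no single-gene probe set, held none either. Nfkbiz and Relb, also at least 2-fold higher, had no entry among the promoters. These shares are a description of 2 arrays and 300-base windows; base composition was not matched and the difference was not tested.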
